A study of Mus musculus with 24 samples.

Results

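The effect of CDDO-Me on bone marrow-derived macrophages (BMDM) held in medium conditioned by KEAP1 KO lung cancer cells was measured by RNA sequencing. The comparison was made between the 3 KEAP1 KO CM/CDDO-Me libraries and the 3 KEAP1 KO CM/vehicle libraries, which are 6 of the 24 libraries of the study, and it was made over all genes. Macrophages of every group were grown from C57BL/6 bone marrow with M-CSF at 20 ng/mL, and the macrophages themselves carried no edit. The KEAP1 knockout was in the cancer cells that conditioned the medium for 48 h, which were LL2, a line of Lewis lung carcinoma from mouse. The cleared conditioned medium (CM) made up 75% of the culture medium and fresh medium the other 25%, and either 100 nM CDDO-Me or vehicle was present for 24 h. The other libraries, also 3 per group, held the same pair of treatments in CM of unedited LL2 cells (WT CM), in CM of NRF2 KO LL2 cells (NRF2 KO CM) and in medium without cancer cells (media). The methods call the 3 samples of a group independent without naming the animals behind them. The p-values therefore rest on the spread between samples within groups, pooled over all 8 groups of the study.

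CDDO-Me, also called bardoxolone methyl, is a synthetic triterpenoid that binds cysteines of KEAP1, the adaptor that marks the transcription factor NRF2 for degradation. When KEAP1 is blocked, NRF2 accumulates and, paired with small MAF proteins, binds antioxidant response elements at genes for glutathione synthesis, thioredoxin and detoxification. Macrophages respond to IL-4 and IL-13 through STAT6 with arginase, chitinase-like proteins and lectin receptors (alternative activation), and to interferon gamma through IRF1 and other factors with immune GTPases, antigen presentation and the chemokines CXCL9 and CXCL10.

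Levels are given as TPM (length-corrected transcript shares that sum to 1000000 in a library), so no counting interval can be set. The methods state only an average sequencing depth, and that of each library is unknown. Fold changes are differences of log2(scaled TPM + 1) and therefore understate the change of genes near 0, and a gene listed at 0 in all 3 libraries of a group is given no fold change. The 6 libraries listed between 17968 and 18543 genes above 0, and the correlation across genes was at least 0.978 within each group and at most 0.919 between a vehicle and a CDDO-Me library. The macrophage genes Csf1r, Lyz2, Adgre1 and Cd68 were present in all 6 libraries, and the summed level of 13 macrophage markers was 19299 to 23716 TPM with vehicle and 20454 to 20977 TPM with CDDO-Me. Within that list 3 genes were higher and 3 lower, and Cd68, a lysosomal glycoprotein used as a macrophage marker, fell from 2048, 1877 and 1992 TPM to 631, 693 and 799 TPM (log2 fold change -1.31, SE 0.18, adjusted p = 7.3e-06). Replicate 1 of KEAP1 KO CM/CDDO-Me stood above the other 2 for a group of inflammatory genes, and replicate 3 stood below them for fibroblast markers. Outside this comparison, the replicate 3 libraries of NRF2 KO CM listed the fewest genes above 0 and share the error estimate of the fit.

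CDDO-Me changed a large part of the transcriptome of macrophages in KEAP1 KO CM. Interferon-induced GTPases and antigen presentation genes rose, as did NRF2 targets such as Nqo1 and Gclm, whereas most of the alternative activation, sterol synthesis and cell cycle genes tested fell. Of the 13661 genes tested with limma, 3927 (28.7%) had an adjusted p under 0.05, of which 1986 (14.5% of all genes) were higher and 1941 (14.2%) lower with CDDO-Me. A log2 fold change of at least 1 in either direction was seen for 1810 of them, 955 higher and 855 lower. The shares of 14.5% higher and 14.2% lower are the background for the counts of each list below. For 6819 genes (49.9%) the 3 scaled values of one group all lay above those of the other. Many genes named below were chosen by a small adjusted p or a large change, so that separate groups follow in part from the choice. Without scaling between libraries the median over all genes moved from -0.02 to -0.17, and 34.63% of the calls were higher in place of 50.57%. The count was 6148 without the NRF2 KO replicate 3 libraries.

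**Figure D1:**
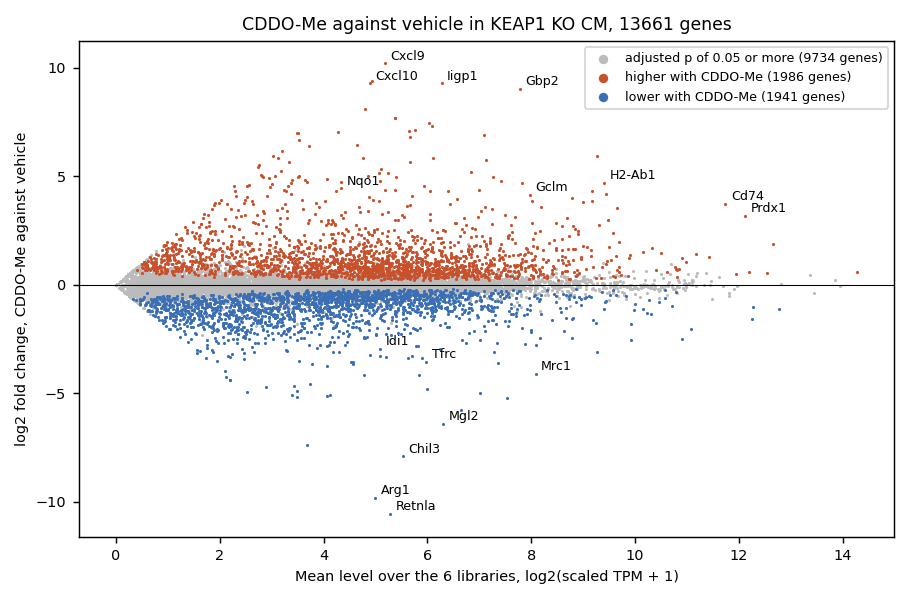
Mean level over the 6 libraries, as log2(scaled TPM + 1), against the log2 fold change of CDDO-Me over vehicle in KEAP1 KO CM for the 13661 genes tested, one point per gene. Orange points are the 1986 genes higher and blue points the 1941 genes lower at an adjusted p under 0.05; Cxcl9 at 10.20 and Arg1 at -9.80 lie near the extremes, and the place of Retnla, listed at 0 in the CDDO-Me libraries, depends on the pseudocount.

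The 12 largest rises were mostly interferon-inducible GTPases and chemokines, many of them near 0 with vehicle. Rises and falls were both taken from genes whose groups did not overlap, which was so for 49.9% of all genes. Cxcl9, a chemokine that attracts T cells (GRCm39 chr5:92469206-92475945, minus strand), was at 0.0504, 0.0698 and 0.0556 TPM with vehicle and at 1614, 1366 and 701 TPM with CDDO-Me. Its log2 fold change was 10.20 (SE 0.24, adjusted p = 3.4e-17). Cxcl10, a ligand of the same receptor, was at 0.124, 0.176 and 0.289 TPM and at 1425, 465 and 490.1 TPM, and its log2 fold change was 9.29 (SE 0.32, adjusted p = 1.6e-14). In both genes the CDDO-Me libraries spread over a wide range, but every one of them was far above every vehicle library. Gbp2, a guanylate-binding protein that acts against intracellular pathogens, was listed at 8.41, 9.63 and 9.42 TPM with vehicle and 4356, 4174 and 5618 TPM with CDDO-Me (log2 fold change 9.02, SE 0.22, adjusted p = 7.5e-17). Iigp1, an immunity-related GTPase, had 1.97, 2.88 and 1.86 TPM against 1734, 1788 and 1844 TPM (log2 fold change 9.28, SE 0.16, adjusted p = 5.3e-19). The 3 CDDO-Me values of Iigp1 lay close together, and no library of one group came near the other. The remaining rises of this set were Gbp4 (9.40), Tgtp1 (8.12), Gbp5 (7.67), Gbp6 (7.67), Tgtp2 (7.47), the chemokine Ccl5 (7.29), Gbp3 (7.11) and the channel gene Calhm6 (7.10). Ccl5 varied between libraries, at 1437, 941 and 365 TPM with CDDO-Me against 6.23, 6.06 and 2.53 TPM.

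The 12 largest falls included enzymes, secreted proteins and receptors known from alternatively activated macrophages. Retnla, which encodes the secreted protein RELM-alpha, was listed at 1504, 1389.8 and 1883 TPM with vehicle and at 0 in all 3 CDDO-Me libraries (adjusted p = 4.8e-19). Arg1, the enzyme that splits arginine into ornithine and urea (GRCm39 chr10:24791118-24803817, minus strand), went from 947, 936 and 1121 TPM to 0.124, 0.0290 and 0.0423 TPM. The log2 fold change of Arg1 was -9.80 (SE 0.21, adjusted p = 1.9e-17), and every CDDO-Me library was close to 0. Chil3, a chitinase-like lectin, had 592, 592 and 1196 TPM with vehicle and 1.33, 3.43 and 1.27 TPM with CDDO-Me (log2 fold change -7.90, SE 0.44, adjusted p = 3.8e-11). The lectin receptor gene Mgl2 was at 903, 846 and 578 TPM and 7.49, 14.3 and 2.98 TPM (log2 fold change -6.41, SE 0.45, adjusted p = 1.1e-09). Rnase2a, an eosinophil-type ribonuclease, was at 215, 250.3 and 96.1 TPM with vehicle and listed at 0 in the CDDO-Me libraries. The absence of overlap in these genes follows from the way they were chosen. Ms4a4a (-5.75), the chemokines Ccl9 (-5.21) and Ccl24 (-5.18), Igfbp5 (-5.12), the lipase Lipn (-5.09), the prostaglandin synthase Ptgs1 (-5.05) and the retinal reductase Dhrs3 (-4.96) completed the set. Dhrs3 was at 761, 712 and 783 TPM with vehicle against 18.5, 32.0 and 14.3 TPM with CDDO-Me.

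**Figure D2:**
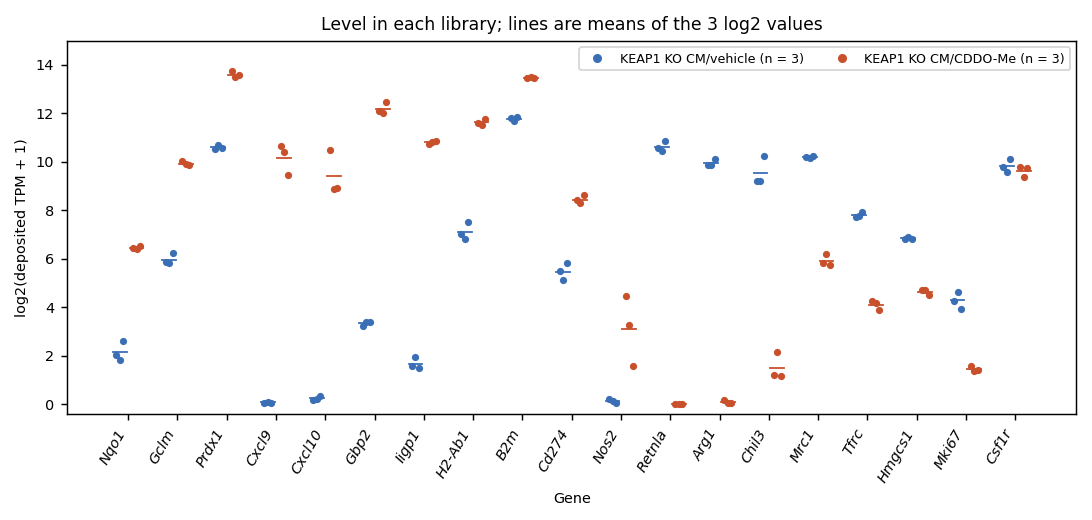
Level of 19 genes as log2(deposited TPM + 1) in each of the 6 libraries, with vehicle in blue and CDDO-Me in orange, 3 libraries each, and lines at the mean of the log2 values. Retnla is listed at 0 in the 3 CDDO-Me libraries, Gbp2 lies between 4174 and 5618 TPM with CDDO-Me against 8.41 to 9.63 TPM with vehicle, and only Csf1r has overlapping groups.

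The NRF2 targets addressed the known action of the drug. Among the regulators, the Nfe2l2 transcript, which encodes NRF2 itself, was at 186, 173 and 169 TPM with vehicle and 217, 127 and 105 TPM with CDDO-Me (log2 fold change -0.13, SE 0.26, adjusted p = 0.79), and the groups overlapped. Keap1 was higher, at 64.1, 62.7 and 60.4 TPM against 39.5, 41.0 and 39.5 TPM (log2 fold change 0.80, SE 0.20, adjusted p = 0.0041), a call that was lost without scaling (0.63, adjusted p = 0.052). These are transcripts of the unedited macrophages and do not check the knockout in the cancer cells. In all, 6 of the 11 regulators tested were higher and 0 lower, among them the small MAF genes Mafk (1.07) and Maff (1.52), the NRF2 competitor Bach1 (0.65) and the autophagy receptor Sqstm1 (0.95).

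Of 13 glutathione genes tested, 8 were higher and 1 lower, with a median log2 fold change of 1.10 beside -0.02 over all genes. Gclm, the modifier subunit of the enzyme that starts glutathione synthesis, rose from 57.8, 55.4 and 74.0 TPM to 1048, 953 and 934 TPM (log2 fold change 4.13, SE 0.28, adjusted p = 6.6e-10). The catalytic subunit Gclc was at 25.4, 21.3 and 25.1 TPM and 49.6, 42.0 and 47.5 TPM (log2 fold change 1.10, SE 0.28, adjusted p = 0.0053). Slc7a11, the cystine importer, went from 2.00, 1.46 and 3.03 TPM to 46.2, 19.2 and 26.3 TPM (log2 fold change 3.40, SE 0.37, adjusted p = 5.5e-07), and its partner Slc3a2 rose by 1.61 on the log2 scale. No library of one group reached the other group in these 4 genes, which was also so for 49.9% of all genes. Of 13 thioredoxin and peroxiredoxin genes, 7 were higher and 1 lower. Prdx1, a peroxide-reducing enzyme, rose from 1469, 1655 and 1541 TPM to 13621, 11466 and 12378 TPM (log2 fold change 3.18, SE 0.15, adjusted p = 3.6e-12). Thioredoxin Txn1 changed by 2.37, its reductase Txnrd1 by 1.92 and sulfiredoxin Srxn1 by 2.80 on the log2 scale.

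Of 40 detoxification and efflux genes, 36 were tested, and 20 were higher and 2 lower (median 0.88). The quinone reductase Nqo1 had 3.08, 2.60 and 5.16 TPM with vehicle and 85.8, 83.5 and 90.8 TPM with CDDO-Me (log2 fold change 4.44, SE 0.33, adjusted p = 2.3e-09). Gsta4, a glutathione transferase, was at 1.76, 2.22 and 4.69 TPM and 163, 189 and 221 TPM (log2 fold change 5.84, SE 0.44, adjusted p = 3.3e-09). Both genes had groups far apart. The efflux pump Abcc1 (2.54) and the transferase Gstp1 (2.09) were also higher. In the pentose phosphate and NADPH list, 3 of 9 genes were higher and 1 lower, namely G6pdx (1.43), Pgd (1.72) and Taldo1 (1.99) against isocitrate dehydrogenase Idh1 (-1.61). Heme oxygenase Hmox1 rose from 335, 345 and 313 TPM to 852, 756 and 587 TPM (log2 fold change 1.30, SE 0.18, adjusted p = 1.2e-05). Among 15 heme and iron genes, 6 were higher and 3 lower, with opposite changes of iron transporters. The transferrin receptor Tfrc fell from 210.4, 220.4 and 242 TPM to 18.2, 17.2 and 13.8 TPM (log2 fold change -3.54, SE 0.17, adjusted p = 3.2e-12), whereas the phagosomal metal transporter Slc11a1 rose by 2.46 and the bilirubin-forming reductase Blvrb by 2.57.

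Promoters were read to show which known elements lie before genes that rose. The antioxidant response element core TGACNNNGC was searched on both strands from 250 bases before to 50 bases after the start site in 13566 promoters of tested genes, and 13.5% of them held it. The share was 13.3% for genes that were higher, 14.7% for genes that were lower and 11.3% (8 of 71) for the glutathione, thioredoxin, detoxification and NADPH lists, so the letters were not more frequent there. Gclm and Prdx1 are the members of these lists with the largest rise among those holding the core before the start site. The 250 bases before each start are given 5′ to 3′ on the gene's strand with the core in capitals, read from GRCm39 with the start of the Ensembl canonical transcript in GENCODE vM39, which for Prdx1 and for Tgtp1, printed further on, lies well inside the annotated gene, at chr3:122038876-122039125 (plus strand) for Gclm and chr4:116542491-116542740 (plus strand) for Prdx1, and both carry it on the opposite strand.
Gclm: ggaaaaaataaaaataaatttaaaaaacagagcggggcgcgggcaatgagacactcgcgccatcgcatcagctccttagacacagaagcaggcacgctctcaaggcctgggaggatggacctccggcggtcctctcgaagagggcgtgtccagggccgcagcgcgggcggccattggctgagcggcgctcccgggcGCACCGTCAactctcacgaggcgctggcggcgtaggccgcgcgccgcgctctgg
Prdx1: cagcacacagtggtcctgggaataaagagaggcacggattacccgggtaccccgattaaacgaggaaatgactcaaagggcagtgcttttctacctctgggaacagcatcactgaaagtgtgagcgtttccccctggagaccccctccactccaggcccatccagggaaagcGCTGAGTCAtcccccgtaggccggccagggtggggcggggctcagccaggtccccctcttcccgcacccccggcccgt

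Interferon genes were higher both among the transcription factors and among the effectors. Of 19 IRF, STAT and JAK genes tested, 12 were higher and 1 lower. Irf1, a transcription factor induced by interferon gamma, went from 66.2, 57.1 and 89.8 TPM to 917, 858 and 959 TPM (log2 fold change 3.86, SE 0.25, adjusted p = 4.3e-10). Irf7 (2.44), Irf8 (2.23) and Stat2 (1.74) were higher, and the single lower member was Irf4 (-2.98), a factor of alternative activation. Stat6, which mediates the response to IL-4, was at 109, 114 and 112 TPM and 113, 115 and 106 TPM (log2 fold change 0.17, SE 0.11, adjusted p = 0.32). Among the feedback inhibitors of the SOCS family, 2 of 8 were higher and 4 lower. Socs1, which restrains interferon signals, rose by 2.51, whereas Cish, a target of STAT5, fell from 20.5, 21.6 and 29.2 TPM to 4.31, 1.79 and 2.45 TPM (log2 fold change -2.58, SE 0.31, adjusted p = 1.9e-06).

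Neither interferon ligand read was seen, and the interferon receptor genes read did not pass the test. Ifng and Ifnb1, the genes for interferon gamma and beta, were listed at 0 in all 6 libraries. Other interferon ligands, such as the interferon alpha genes, are not given here. The receptor genes Ifngr1, Ifngr2, Ifnar1 and Ifnar2 had log2 fold changes between -0.22 and 0.37 with adjusted p between 0.14 and 0.60. Il4, read because of the fall in alternative activation genes and so chosen after its value was seen, was at 14.3, 13.2 and 13.5 TPM with vehicle and 3.48, 3.39 and 4.10 TPM with CDDO-Me (log2 fold change -1.51, SE 0.36, adjusted p = 0.0031). For the nucleic acid sensors and interferon receptors together, 4 of 10 genes tested were higher and 0 lower, the sensors Dhx58 (2.40), Ifih1 (1.50) and Rigi (0.88) and the adaptor Sting1 (1.99).

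All 11 guanylate-binding protein genes and all 7 immunity-related GTPase genes tested were higher. These GTPases coat and disrupt the vacuoles of intracellular microbes. Their summed level was 117.3 to 139.8 TPM with vehicle and 13640 to 15270 TPM with CDDO-Me. The median log2 fold change was 7.11 over the 9 guanylate-binding protein genes above 0 in both groups and 6.91 over the immunity-related GTPases. The other 2, Gbp2b and Gbp10, were listed at 0 with vehicle and at 111, 91.8 and 153 TPM and 121, 123 and 114 TPM with CDDO-Me. In all, 4 of the 11 and 1 of the 7 had a mean under 1 TPM with vehicle, so that a fall could hardly be called for them. Igtp had 11.7, 12 and 12.3 TPM against 1530.3, 1407 and 1266 TPM (log2 fold change 6.91, SE 0.14, adjusted p = 9.5e-18), and Irgm1, a regulator of the family, 34.6, 34.9 and 30.6 TPM against 789, 808 and 884 TPM (log2 fold change 4.76, SE 0.11, adjusted p = 2.1e-17). The replicates of Igtp and Irgm1 lay close together within each group. Tgtp1 and Tgtp2 are near-identical copies and several guanylate-binding protein and H2 genes are close relatives, so that reads could be divided between them and their single values are uncertain.

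Antiviral effectors of the wider interferon response were higher too, with a smaller median. Of 28 such genes tested, 26 were higher and 0 lower (median 2.37), and of 9 Ifi200 genes, which sense nucleic acids, 8 were higher (median 2.84). A mean under 1 TPM with vehicle, which leaves little room for a fall, was found for 4 of the 28 and 1 of the 9. The ubiquitin-like Isg15 was at 11.9, 12.02 and 10.1 TPM with vehicle and 105, 116 and 116 TPM with CDDO-Me (log2 fold change 3.37, SE 0.19, adjusted p = 5.3e-11). Zbp1, a sensor that can trigger cell death, rose from 18.0, 14.8 and 23.8 TPM to 334, 325 and 391 TPM (log2 fold change 4.33, SE 0.27, adjusted p = 1.9e-10). Their groups did not overlap, as was so for 49.9% of all genes. Ifi44 (4.11), Parp14 (2.44), Ifi203 (2.98) and Ifi211 (2.86) were among the calls with the smallest adjusted p.

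The core of the interferon-stimulated response element, searched on either strand as GAAA and GAAA with any 2 bases between them, was present in 3.75% of the 13566 promoters over the same window. It lay in 7.49% of the promoters of genes that were higher, 3.27% of those lower, 55.6% (10 of 18) of the GTPase genes and 14 of 28 of the antiviral effectors. The gamma-activated site core, TTCNNNGAA, added after the interferon genes had been seen to rise, was in 7.63% of all promoters, 9.72% of the promoters of genes that were higher and 44.4% (8 of 18) of those of the GTPases. Before the start site alone, the response element core was in 33.3% of the GTPase promoters and 3.25% of all. These shares are descriptions with no test. Promoters of some GTPase and antiviral members that rose and held a match are printed as above. They are examples and not a ranking by rise, and the size of the rise of Gbp2b depends on the pseudocount. The response element core is in capitals for Tgtp2 (chr11:48955032-48955281, minus strand), Gbp2b (chr3:142300352-142300601, plus strand) and Ifit3 (chr19:34560649-34560898, plus strand). The gamma-activated site core is in capitals for Tgtp1 (chr11:48883148-48883397, minus strand). Ifit3 holds 2 matches of the core marked and the others 1 each. Only the core named for a gene is in capitals. The Tgtp2 stretch also holds, in lower case, the gamma-activated site core marked in Tgtp1, and the Tgtp1 stretch ends shortly after that core.
Tgtp2: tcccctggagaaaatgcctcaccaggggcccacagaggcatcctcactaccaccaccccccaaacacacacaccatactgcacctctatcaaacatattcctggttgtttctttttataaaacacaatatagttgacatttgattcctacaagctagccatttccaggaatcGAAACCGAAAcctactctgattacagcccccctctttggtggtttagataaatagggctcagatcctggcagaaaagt
Gbp2b: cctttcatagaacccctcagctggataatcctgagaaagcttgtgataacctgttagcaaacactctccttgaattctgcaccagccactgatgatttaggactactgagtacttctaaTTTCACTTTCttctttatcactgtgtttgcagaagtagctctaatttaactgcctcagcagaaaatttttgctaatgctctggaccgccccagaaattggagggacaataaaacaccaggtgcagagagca
Ifit3: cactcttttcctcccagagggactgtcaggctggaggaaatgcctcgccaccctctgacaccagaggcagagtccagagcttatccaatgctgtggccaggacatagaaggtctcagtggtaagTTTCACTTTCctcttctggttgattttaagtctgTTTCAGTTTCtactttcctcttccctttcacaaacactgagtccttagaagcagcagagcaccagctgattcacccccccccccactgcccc
Tgtp1: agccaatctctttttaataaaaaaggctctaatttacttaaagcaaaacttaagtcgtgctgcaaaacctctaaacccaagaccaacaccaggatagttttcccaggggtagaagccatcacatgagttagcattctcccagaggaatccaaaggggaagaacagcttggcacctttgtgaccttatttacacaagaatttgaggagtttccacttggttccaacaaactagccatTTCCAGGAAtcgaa

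Antigen presentation genes rose throughout. All 15 class I genes, all 10 class II genes and all 5 immunoproteasome genes tested were higher, with median log2 fold changes of 2.59, 3.64 and 2.22. Of the class II genes 2 had a mean under 1 TPM with vehicle. The summed level of the class II list was 1295 to 2139 TPM with vehicle and 20330 to 23770 TPM with CDDO-Me, and that of the class I list 6957 to 8488 TPM and 23040 to 23310 TPM. H2-Ab1, the beta chain of a class II molecule, rose from 130.3, 113 and 182 TPM to 3158, 2972 and 3537 TPM (log2 fold change 4.70, SE 0.32, adjusted p = 6.8e-10). Its transactivator Ciita went from 3.70, 3.98 and 5.32 TPM to 121, 156 and 188 TPM (log2 fold change 5.02, SE 0.30, adjusted p = 8.3e-11), and the invariant chain Cd74 changed by 3.72. On the class I side, the light chain B2m was at 3621, 3264 and 3747 TPM and 11356, 11548 and 11317 TPM (log2 fold change 1.86, SE 0.36, adjusted p = 0.00044), the peptide transporter Tap1 rose by 3.95 and the transactivator Nlrc5 by 3.25. No vehicle library reached a CDDO-Me library in any of these 6 genes, and 49.9% of all genes had groups that did not overlap. The inducible catalytic subunits Psmb8 (2.71), Psmb9 (2.64) and Psmb10 (1.69) rose with the activator Psme2 (2.22). Of 33 constitutive proteasome genes, 11 were higher and 2 lower, with a median of 0.24 that was 0.07 without scaling.

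Of 14 checkpoint and costimulatory genes, 6 were higher and 2 lower. Cd274, which encodes the inhibitory ligand PD-L1, was at 43.8, 33.8 and 55.6 TPM with vehicle and 342, 313 and 392 TPM with CDDO-Me (log2 fold change 3.14, SE 0.30, adjusted p = 9.4e-08). The costimulatory ligands Icosl (2.43) and Cd86 (2.28) rose. Cd86 had 12.4, 6.46 and 28.8 TPM against 60.3, 54.3 and 71.4 TPM, and its groups did not overlap although the vehicle libraries were widely spread.

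**Figure D3:**
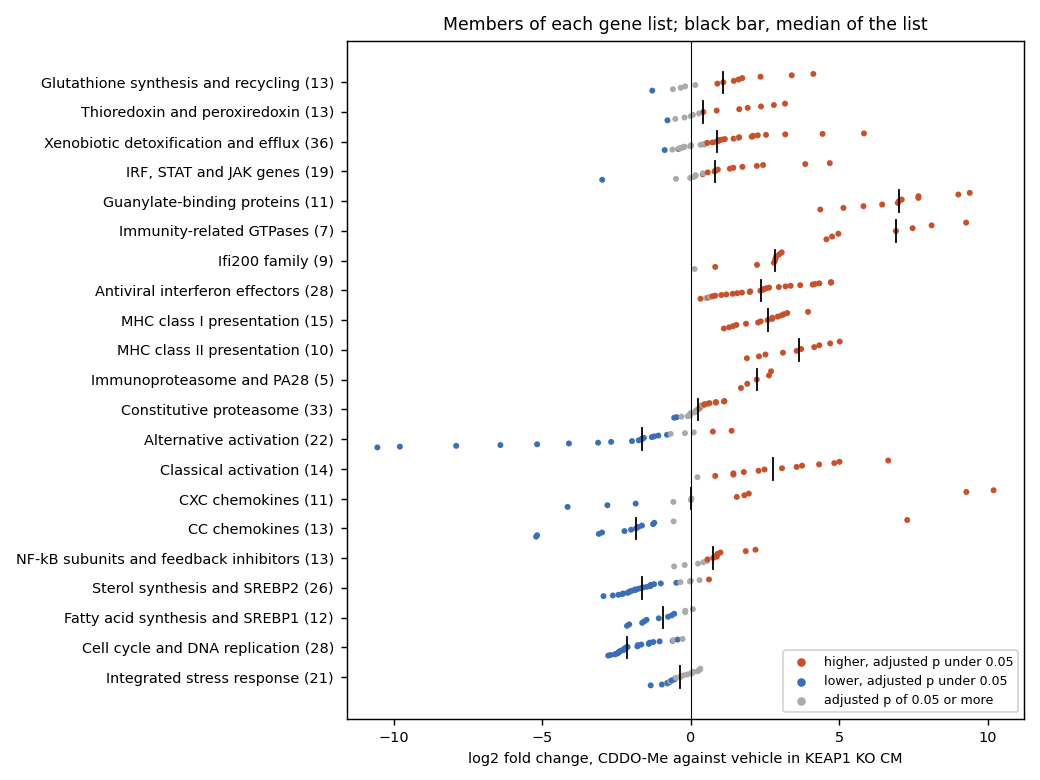
Log2 fold change of CDDO-Me over vehicle in KEAP1 KO CM for every tested member of 21 gene lists, one point per gene, with the number tested in brackets and a black bar at the median. Orange and blue points passed an adjusted p under 0.05 and grey points did not; all members of the GTPase, MHC and immunoproteasome lists lie to the right of 0, while cell cycle and sterol synthesis members lie mostly to the left, with medians of -2.16 and -1.64.

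Alternative activation genes fell as a group but not all of them did. Of 24 members 22 were tested, and 17 were lower and 2 higher (median -1.65, or -1.58 over the 19 members above 0 in both groups). The mannose receptor Mrc1 fell from 1173, 1150.1 and 1213 TPM to 56.0, 73.5 and 52.2 TPM (log2 fold change -4.10, SE 0.25, adjusted p = 1.3e-10). Clec10a, a galactose-type lectin, went from 251, 274 and 271 TPM to 68.0, 84.9 and 70.2 TPM (log2 fold change -1.66, SE 0.17, adjusted p = 2.5e-07). Pparg, a nuclear receptor of lipid metabolism, was at 84.3, 85.9 and 64.7 TPM and 13.96, 19.3 and 17.4 TPM (log2 fold change -1.98, SE 0.12, adjusted p = 9.4e-11). These 3 genes fell without any overlap of the groups, beside 49.9% of all genes whose groups did not overlap. Chil4 and Ccl17 were listed at 0 in the CDDO-Me libraries, from 7.98, 7.99 and 8.26 TPM and 0.910, 3.63 and 2.81 TPM with vehicle. The 2 members that were higher were Il4ra (log2 fold change 1.38, SE 0.13, adjusted p = 9.8e-08), the receptor subunit for IL-4 and IL-13, and the scavenger receptor Msr1 (log2 fold change 0.75, SE 0.27, adjusted p = 0.044). Msr1 was no longer called when any 1 of the 6 libraries was left out, with adjusted p between 0.051 and 0.12. In arginine and polyamine metabolism, 2 of 14 genes were higher and 5 lower. Besides Arg1, the arginine importer Slc7a2 fell from 62.7, 52.1 and 62.6 TPM to 8.84, 4.15 and 4.10 TPM (log2 fold change -3.08, SE 0.26, adjusted p = 1.6e-08), whereas Ass1, which rebuilds arginine from citrulline, rose from 13.9, 13.4 and 9.60 TPM to 342, 178 and 131 TPM (log2 fold change 4.10, SE 0.36, adjusted p = 2.7e-08). Nos2, the inducible nitric oxide synthase, was at 0.178, 0.0925 and 0.0481 TPM with vehicle and 21.3, 8.75 and 2.03 TPM with CDDO-Me (log2 fold change 3.07, SE 0.49, adjusted p = 5.6e-05), with the 3 treated libraries far apart from each other.

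Classical activation genes were higher in 13 of 14 cases, with a median of 2.78, and 12 were higher (median 2.33) without CDDO-Me replicate 1. Of the 14, 6 had a mean under 1 TPM with vehicle. Such genes passed the filter through libraries where they were higher, so that a fall could hardly be called for them. Acod1, which makes itaconate, was at 0.219, 0.0625 and 0.169 TPM and 331, 59.0 and 60.5 TPM (log2 fold change 6.65, SE 0.44, adjusted p = 4.3e-10). Il1b, an inflammasome-processed cytokine, had 1.39, 0.336 and 2.30 TPM against 129.9, 13.8 and 32.5 TPM (log2 fold change 4.32, SE 0.69, adjusted p = 5.7e-05). For both genes replicate 1 of CDDO-Me was several times above the other 2, which still lay above every vehicle library. The cyclooxygenase Ptgs2 rose by 4.84, and Tnf by 3.57, from 3.86, 3.85 and 2.94 TPM to 74.7, 38.4 and 36.5 TPM. Il6 rose to a modest level, from 0.567, 0.467 and 0.594 TPM to 18.2, 6.17 and 2.70 TPM (log2 fold change 2.48, SE 0.44, adjusted p = 0.00017). Of 16 cytokine genes tested 9 were higher and 2 lower, and the largest rises were those of the interleukin 18 antagonist Il18bp (4.97), of Il27 (4.55) and of Il1b.

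NF-kB subunits and feedback inhibitors were higher in part, and the count moved with single libraries. Of 13 subunits and inhibitors, 8 were higher and 0 lower (median 0.76), but 3 were higher (median 0.38) when CDDO-Me replicate 1 was left out, 5 and 4 without vehicle replicates 1 and 2, and 3 when libraries were not scaled. Nfkbia, the classical inhibitor of NF-kB, was at 50.7, 44.3 and 50.3 TPM with vehicle and 179.6, 61.0 and 59.4 TPM with CDDO-Me (log2 fold change 1.00, SE 0.30, adjusted p = 0.015). Without CDDO-Me replicate 1 its log2 fold change was 0.47 (adjusted p = 0.10), and the call was also lost without scaling (0.83, adjusted p = 0.053) and without vehicle replicate 2 (0.95, adjusted p = 0.052). Nfkbie, at 109, 32.8 and 26.2 TPM with CDDO-Me against 10.5, 10.8 and 10.3 TPM, and Cd40, at 112, 34.1 and 40.8 TPM against 18.0, 18.1 and 14.6 TPM, showed the same high value in replicate 1. Nfkbiz, an inducible coactivator, did not, at 20.02, 19.4 and 12.3 TPM against 4.20, 5.51 and 3.97 TPM (log2 fold change 1.85, SE 0.19, adjusted p = 1.8e-07). Inflammasome genes were higher in 10 of 13 cases, among them Nlrp3 (2.04) and the pore former Gsdmd (1.58). Toll-like receptors split, with 5 of 15 genes higher and 2 lower, as Tlr9 rose by 2.79 and Tlr4 fell from 87.7, 89.6 and 91.0 TPM to 47.9, 44.5 and 51.6 TPM (log2 fold change -0.72, SE 0.14, adjusted p = 0.00062).

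Of 13 CC chemokines tested 11 were lower and 1, Ccl5, higher. Ccl9 fell from 1185, 1137 and 1243 TPM to 37.0, 25.5 and 22.2 TPM and Ccl6 from 1691, 1429 and 2746 TPM to 214, 236 and 144 TPM, with log2 fold changes of -5.21 (SE 0.28, adjusted p = 2.5e-11) and -3.10 (SE 0.25, adjusted p = 7.9e-09). Of 11 CXC chemokines 5 were higher and 3 lower, and the lower ones included Pf4 (-4.15). Cxcl5, a chemokine for neutrophils, was at 39.3, 38.1 and 19.8 TPM and 58.5, 25.8 and 13.8 TPM, and it did not pass (log2 fold change 0.01, SE 0.49, adjusted p = 1.00), with groups that overlapped. Among the chemokine receptors, Ccr2 (1.70) was higher and Cxcr4 (-2.27) and Ccr3 (-1.74) lower.

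Sterol synthesis genes were lower in 21 of 26 cases and higher in 1, with a median of -1.64. Srebf2, the transcription factor that drives them, fell from 94.9, 103 and 105 TPM to 47.1, 44.5 and 40.4 TPM (log2 fold change -1.01, SE 0.11, adjusted p = 5.2e-07). Idi1, an isomerase of the pathway, was at 102, 107 and 86.4 TPM and 13.1, 12.3 and 7.15 TPM (log2 fold change -2.94, SE 0.16, adjusted p = 2.9e-11), and Sqle, which makes squalene epoxide, at 72.0, 77.1 and 73.9 TPM and 13.6, 15.4 and 9.24 TPM (log2 fold change -2.32, SE 0.14, adjusted p = 8.3e-11). Every CDDO-Me library was below every vehicle library in these genes. Of 12 fatty acid synthesis genes 9 were lower and 0 higher, with Fasn at -2.07, the desaturase Scd1 at -2.15 and their regulator Srebf1 at -0.56 on the log2 scale. The lipid droplet and transport genes Plin2 (-1.54) and Fabp4 (-2.97) also fell, within a list of 14 fatty acid handling genes in which 5 were higher and 5 lower.

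In glycolysis and hypoxia, 11 of 23 genes were higher and 1 lower, and 6 were higher without CDDO-Me replicate 1. Pfkp, a phosphofructokinase, rose from 60.7, 73.3 and 53.6 TPM to 181, 192 and 195 TPM (log2 fold change 1.77, SE 0.10, adjusted p = 2.6e-11), and the pyruvate kinase Pkm by 1.25. Of 19 tricarboxylic acid cycle genes, Acod1 included, 2 were higher and 5 lower, beside 14.5% and 14.2% of all genes. The lower ones included Idh2 (-1.13) and Sdha (-0.39). None of 21 integrated stress response genes was higher and 7 were lower, such as Phgdh (-1.35) and Ddit3 (-0.71). Of 18 heat shock chaperones 2 were higher and 3 lower, and of 15 unfolded protein response genes 1 was higher and 3 lower, beside 14.5% and 14.2% of all genes. In the metallothionein and zinc list 2 of 5 were higher, Mt2 (1.39) and the zinc exporter Slc30a1 (1.17).

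Cell cycle genes fell, with 26 of 28 lower, 0 higher and a median of -2.16. Birc5, the survivin gene of dividing cells, was at 41.0, 45.6 and 35.9 TPM with vehicle and 3.52, 5.28 and 4.73 TPM with CDDO-Me (log2 fold change -2.78, SE 0.24, adjusted p = 2.3e-08). Mcm6, a replicative helicase subunit, went from 70.2, 81.9 and 49.4 TPM to 16.4, 18.9 and 18.0 TPM (log2 fold change -1.67, SE 0.15, adjusted p = 2.8e-08). Uhrf1 (-2.46) and Tyms (-2.27) fell as well, while the polymerase clamp Pcna, at 360.0, 398 and 307 TPM and 206, 245 and 343 TPM, had overlapping groups and did not pass (log2 fold change -0.28, SE 0.19, adjusted p = 0.34), except with array weights (-0.42, adjusted p = 0.010). In bulk RNA a smaller number of cells of one kind cannot be told apart from less RNA per cell.

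Lysosomal and surface genes of macrophages moved in both directions. Of 14 cathepsin and lysosome genes 4 were higher and 8 lower. Ctsc, which activates granule proteases, rose from 263, 249 and 275 TPM to 1659, 1743 and 2279.9 TPM (log2 fold change 3.01, SE 0.17, adjusted p = 5.1e-11), whereas Ctsl fell from 2029, 2127 and 3427 TPM to 362, 368 and 384 TPM (log2 fold change -2.55, SE 0.34, adjusted p = 6.8e-06). Both separated fully between the groups, as did 49.9% of all genes. Of 6 Fc gamma receptor genes 2 were higher, the activating receptors Fcgr1 (3.50) and Fcgr4, and 1 lower, the inhibitory receptor Fcgr2b. Fcgr4 was at 150.0, 110.0 and 194 TPM and 1112, 1006 and 1274 TPM (log2 fold change 3.10, SE 0.27, adjusted p = 2.3e-08), and Fcgr2b at 1082, 857 and 1377 TPM and 164, 195 and 166 TPM (log2 fold change -2.46, SE 0.38, adjusted p = 4.1e-05). Complement genes were higher in 5 of 14 cases and lower in 3, with factor B (Cfb, 3.76) and the C5a receptor C5ar1 (-2.55) at the ends. Among 13 scavenger and efferocytosis receptors 4 were higher and 4 lower, and 2 or 3 were higher when any 1 library was left out. Stab1 (-2.14) and the bridging ligand Gas6 (-1.91) were lower and Mertk (0.91) higher.

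The remaining lists showed mixed changes, and some of their counts lay near the 14.5% higher and 14.2% lower among all genes. The NADPH oxidase genes Cybb (1.76) and Ncf1 (1.04) were higher. Of 11 prostaglandin and leukotriene genes 5 were higher, with Ptgs2, Pla2g4a (1.88) and Alox5ap (1.72) among them, and 2 lower. Matrix metalloproteinases and inhibitors had 2 of 11 higher and 3 lower, of which Mmp12, a macrophage elastase, fell from 1857, 2202 and 2423 TPM to 743, 640.4 and 844 TPM (log2 fold change -1.37, SE 0.30, adjusted p = 0.0014). Of 14 angiogenic factors and receptors 4 were higher, such as Nrp1 (1.24), and 5 lower, such as Pdgfa (-1.92) and Vegfb (-1.11). Of 12 genes of LXR and cholesterol efflux 2 were higher and 4 lower, the exporter Abca1 (-0.67) among the latter. Csf1r, the receptor for M-CSF, was at 889, 772 and 1098 TPM and 887, 673 and 859 TPM, with overlapping groups (log2 fold change -0.01, SE 0.23, adjusted p = 0.98).

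Markers of other cell types were read in the same libraries. The 13 fibroblast and stromal markers, none of them listed at 0, summed to 2741, 3360 and 1770 TPM with vehicle and 1764, 2049 and 565 TPM with CDDO-Me, and 3 of them, Pdgfra, Postn and Acta2, were lower. The summed levels of the groups overlapped, replicate 3 was the lowest of each group, and each CDDO-Me library was below the vehicle library of the same number. Postn and Acta2 were no longer called without CDDO-Me replicate 3 (-1.06, adjusted p = 0.17, and -0.61, adjusted p = 0.21), nor without vehicle replicate 1 (adjusted p = 0.071 and 0.055) or vehicle replicate 2 (adjusted p = 0.081 and 0.14). The 5 dendritic cell markers summed to 1.09 to 1.22 TPM with vehicle and 46.9 to 86.1 TPM with CDDO-Me. Nearly all of that sum was Clec9a, a receptor for dead cells, at 0.0679, 0.0244 and 0.0608 TPM against 43.8, 53.9 and 83.4 TPM. Xcr1 rose too, from a mean of 0.0713 TPM with vehicle to 2.27, 1.91 and 2.04 TPM with CDDO-Me. Of the 3 members tested 2 were higher and 0 lower, and all 3 had a mean under 1 TPM with vehicle, which leaves little room for a fall. Zbtb46, the defining factor of the lineage, was at 1.03, 0.967 and 0.914 TPM and 0.759, 0.491 and 0.545 TPM. The 10 neutrophil markers summed to 16.9 to 26.1 TPM and 65.9 to 76.6 TPM, mostly S100a8 (11.3, 9.41 and 9.47 TPM against 56.3, 50.2 and 63.9 TPM). T and NK cell markers summed to 0.605 to 1.32 TPM and 0.529 to 0.609 TPM, with 1 to 4 of 7 listed at 0, and B cell, erythroid, mast cell, eosinophil, epithelial, adipocyte and endothelial lists reached at most 12.9 TPM in any of the 6 libraries. The 13 mitochondrially encoded genes summed to 25023 to 32091 TPM with vehicle and 16001 to 18774 TPM with CDDO-Me. The part of these differences in the interferon, antigen presentation and cell cycle results was not tested.

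Whether the effect of CDDO-Me depended on the medium was tested as the difference between its effect in KEAP1 KO CM and its effect in each other medium, in the same limma fit. The differences share the 6 KEAP1 KO CM libraries. Against media, 2014 genes (14.7%) differed, 1146 (8.39%) with a more positive and 868 (6.35%) with a more negative effect in KEAP1 KO CM. Against NRF2 KO CM, 1733 genes (12.7%) differed, 1020 (7.47%) more positive and 713 (5.22%) more negative. Against WT CM, 0 genes (0.0%) differed at an adjusted p under 0.05, 225 had an unadjusted p under 0.05, and limma with array weights gave 18. Without the NRF2 KO replicate 3 libraries the counts were 4041 against media and 2896 against NRF2 KO CM. Against WT CM the count stayed at 0, while 648 genes in place of 225 had an unadjusted p under 0.05 in limma. Without scaling, 40.45% in place of 56.9% of the differences against media were more positive, and 43.03% in place of 58.86% against NRF2 KO CM.

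The interferon, antigen presentation and alternative activation effects were among those that differed. All 11 guanylate-binding protein, 7 immunity-related GTPase, 10 class II and 5 immunoproteasome genes differed against media and against NRF2 KO CM, as did 25 of 28 antiviral effectors, 13 of 15 class I genes and 17 of 22 alternative activation genes in each comparison. Other lists also differed in part, with 18 of 26 sterol synthesis genes past the threshold in each comparison, 9 of 13 CC chemokines against media and 8 against NRF2 KO CM, and 17 of 28 cell cycle genes against media and 6 against NRF2 KO CM. The median log2 fold change of the class II list was 3.64 in KEAP1 KO CM, -0.32 in media and 0.11 in NRF2 KO CM, and that of the antiviral list was 2.37, -0.31 and -0.32. Cxcl9 was at most 0.544 TPM in media and at most 0.371 TPM in NRF2 KO CM with either treatment. Arg1 was at 0.0884, 0.301 and 0.128 TPM in media/vehicle and 0.548, 0.0532 and 1.29 TPM in NRF2 KO CM/vehicle, and its effect differed by -9.68 and -9.32 (adjusted p = 1e-14 and 1.3e-14). Retnla was listed at 0 in all libraries of media and NRF2 KO CM, so that its effect there could not be compared. It is still among the 22 alternative activation genes tested. For a gene near 0 with vehicle in the other medium, as Arg1 was, no fall could be seen there. The count of alternative activation genes that differed therefore depends in part on their level in the other medium.

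Among the genes named, Fcgr4, Mmp12 and Tfrc are given as examples of effects in the opposite direction, and such genes were not counted over all genes. Other named genes, such as Tgtp2 and Ms4a4a in NRF2 KO CM, also had effects of opposite sign, and they are not listed in full. Fcgr4 rose by 3.10 in KEAP1 KO CM but changed by -2.55 in media (adjusted p = 3.5e-06) and -2.38 in NRF2 KO CM (adjusted p = 5.9e-06). Mmp12 was lower in KEAP1 KO CM (-1.37) and higher in media (1.48, adjusted p = 0.0036) and NRF2 KO CM (1.32, adjusted p = 0.0064). Tfrc, which fell in KEAP1 KO CM, had log2 fold changes of 0.40 in media (adjusted p = 0.22) and 0.64 in NRF2 KO CM (adjusted p = 0.019). The differences for these 3 genes passed the threshold against media and against NRF2 KO CM. The summed GTPase level in media was 104.5 to 110.7 TPM with vehicle and 87.88 to 93.26 TPM with CDDO-Me. In NRF2 KO CM it was 133 to 148 TPM and 110.1 to 114.1 TPM. The class II sum in media was 1838 to 1976 TPM with vehicle and 1153 to 1240 TPM with CDDO-Me. The class I sum was higher with CDDO-Me in media, and in NRF2 KO CM the groups overlapped for both class sums.

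The NRF2 targets Nqo1 and Gclm rose in every medium. Nqo1 changed by 4.44 in KEAP1 KO CM, 4.85 in media, 5.35 in NRF2 KO CM and 3.67 in WT CM, and Gclm by 4.13, 3.82, 4.09 and 4.06. Neither difference against media passed (adjusted p = 0.69 and 0.73), although that of Gclm did with array weights (0.45, adjusted p = 0.039). Of the 13 glutathione genes 3 differed against media, and of the 36 detoxification genes 8, beside 14.7% of all genes. Some differed by size, since Txn1 rose by 2.37 in KEAP1 KO CM and 1.04 in media, and Prdx1 by 3.18 and 2.38 (adjusted p of the differences = 0.00059 and 0.015), the latter not past the threshold without scaling, without the filter on low values or without media/vehicle replicate 3 (0.67, adjusted p = 0.052). Gsta3, a glutathione transferase, rose less in KEAP1 KO CM, by 2.26 against 4.96 in media (adjusted p = 0.00029), and the heme synthesis enzyme Alas1 changed by 0.27 against 1.89 (adjusted p = 0.00026). Hmox1 rose by 1.30 and 1.55, a difference that did not pass (adjusted p = 0.63).

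**Figure D4:**
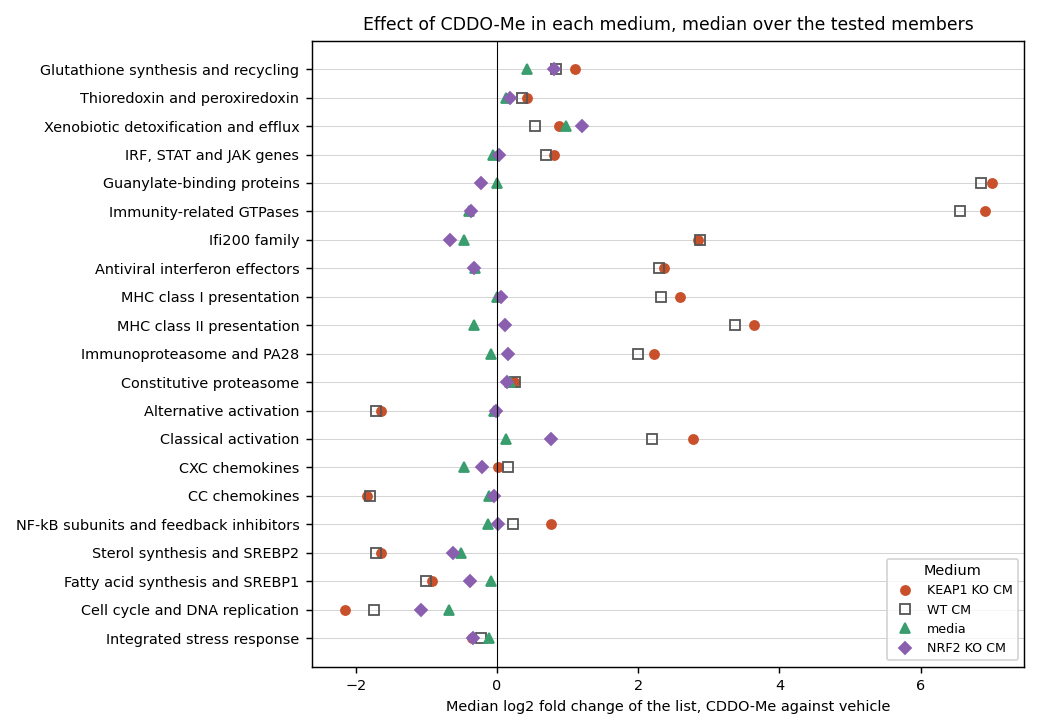
Median log2 fold change of CDDO-Me over vehicle for the tested members of 21 gene lists in KEAP1 KO CM (orange circles), WT CM (open squares), media (green triangles) and NRF2 KO CM (purple diamonds). For class II genes the medians were 3.64, 3.37, -0.32 and 0.11 in that order, while the 4 medians of the detoxification list lie between 0.54 and 1.21.

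Against WT CM the sizes of the differences were bounded by their intervals. The 95% interval of the difference lay within 1 on either side of 0 on the log2 scale for 9711 of 13661 genes (71.1%) and for 3002 of the 3927 called genes (76.4%). For H2-Ab1 the effect was 4.70 in KEAP1 KO CM and 4.17 in WT CM, with an interval of the difference from -0.42 to 1.47. For Nqo1 the interval was -0.21 to 1.74 and for Arg1 -1.24 to 0.02, and these intervals reach differences of about a log2 unit or more. Cxcl9 (-0.96 to 0.46) and Gbp2 (-0.30 to 1.03) were similarly bounded.

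**Figure D5:**
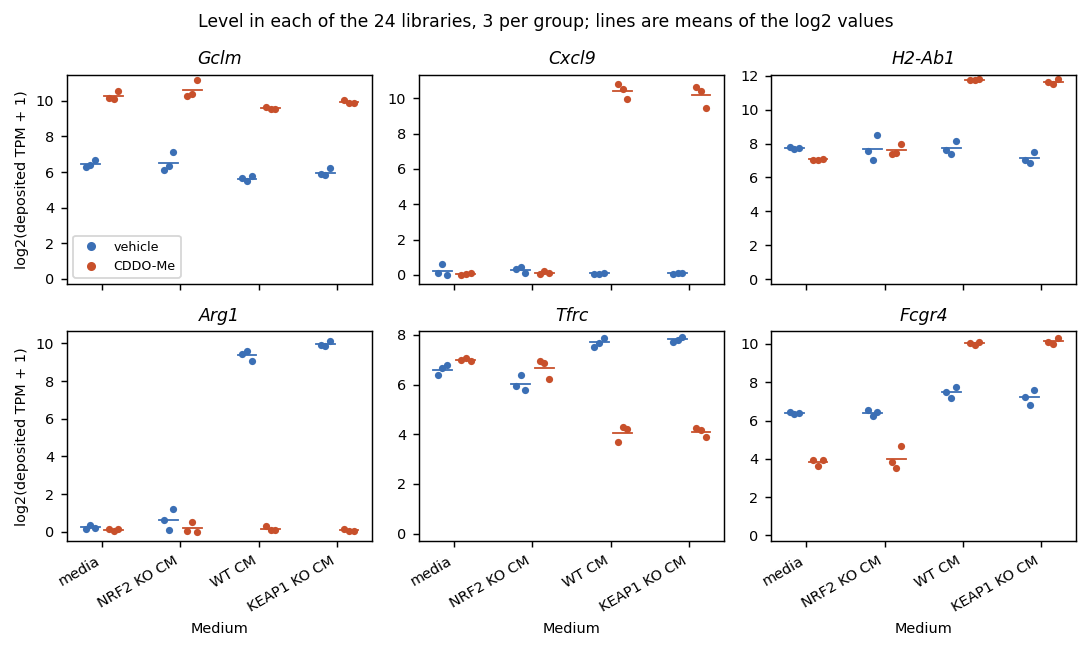
Level of 6 genes as log2(deposited TPM + 1) in each of the 24 libraries by medium, vehicle in blue and CDDO-Me in orange, 3 libraries per group, with lines at the mean of the log2 values. Gclm is higher with CDDO-Me in all 4 media, Cxcl9 and H2-Ab1 are high only in the CDDO-Me libraries of WT CM and KEAP1 KO CM, and Fcgr4 is higher with CDDO-Me in those media and lower in media and NRF2 KO CM.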

How the data were processed

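Poly-A RNA of 24 BMDM cultures in 8 groups of 3 was sequenced. The deposited table holds TPM per gene symbol, which the authors estimated with kallisto on the GRCm39 cDNA set. Libraries sum to about 1000000, so no count model was applied and the depth of each library is unknown. The line with no symbol, 0.0199 to 0.0635% of a library, was left out, and 0 columns belonged to other samples. Genes above 1 TPM in at least 3 libraries (13661 of 35770 symbols) were kept, TPM were scaled by trimmed means of M values (30% of M and 5% of A trimmed at each end) without precision weights, and log2(scaled TPM + 1) was fitted with limma 3.58.1 (lmFit, contrasts, eBayes with trend; R 4.3.3) over 8 groups, leaving 16 residual degrees of freedom. Tests are two-sided with Benjamini-Hochberg adjustment over all 13661 genes and a threshold of 0.05. The interaction contrasts used the same fit. Overlap of groups was judged on scaled values, and the levels printed are the deposited TPM.

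The comparison, its members, the 47 pathway lists and the 13 marker lists were chosen with earlier results of these data known. Genes named by rule were the 12 largest rises and falls with a mean of at least 5 TPM and no overlap, up to 4 members per pathway list by adjusted p, a fixed set of core genes, and the 6 largest interaction differences per direction; the text prints part of them, and some items are not reported here. Alas1, Ccl17, Cd74, Gsta3, Ifit3, Il4ra, Irf4, Irf8, Msr1, Pcna and the interferon and interleukin 4 ligands and receptors lie outside that rule and were chosen after their values were seen, and the marker genes come from the marker lists. Promoters were read from the GRCm39 sequence with GENCODE vM39 start sites for 13566 of the 13661 genes. The script was tested on simulated data. Pandas 2.3.3, numpy 2.4.6 and matplotlib 3.10.9 under Python 3.11.15 were used.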

Additional observations from a re-analysis of the deposited data

Results flagged for a closer look

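The results given here are differences between the effect of CDDO-Me in KEAP1 KO CM and its effect in another medium, each tested as an interaction in limma over 3 libraries per group, with values as differences of log2 fold changes and an adjusted p under 0.05. Groups of 3 are too small for a test of single outlying libraries, and no explanation was tested.

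Against media the effect differed for 2014 genes. It was more positive in KEAP1 KO CM for the chemokines Cxcl9 (10.38) and Cxcl10 (10.16), for the GTPases Gbp4 (9.37), Iigp1 (9.20), Tgtp1 (8.85) and Gbp2 (8.61), for the Fc receptor Fcgr4 (5.64) and, among NRF2 targets, for Txn1 (1.33) and Prdx1 (0.79). It was more negative for Arg1 (-9.68), Chil3 (-8.08), Mgl2 (-7.00), Lipn (-5.88), Tfrc (-3.93), Mmp12 (-2.85), Gsta3 (-2.70) and Alas1 (-1.62). Retnla and Rnase2a are left out because they are listed at 0 in all libraries of media and NRF2 KO CM, and Arg1 was close to 0 there with either treatment.

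Against NRF2 KO CM the effect differed for 1733 genes. It was more positive for Cxcl9 (10.37), Cxcl10 (9.98), Gbp4 (9.62), Tgtp1 (9.33), Iigp1 (9.16), Tgtp2 (8.99) and Fcgr4 (5.47). It was more negative for Arg1 (-9.32), Chil3 (-7.84), Mgl2 (-7.23), the surface protein gene Ms4a4a (-6.62), Tfrc (-4.17) and Mmp12 (-2.69). The own effects of Fcgr4 and Mmp12 passed the threshold in opposite directions in KEAP1 KO CM and in both other media, and that of Tfrc in KEAP1 KO CM and NRF2 KO CM.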

How the results depend on the processing

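The 3927 calls of CDDO-Me against vehicle in KEAP1 KO CM were 7015 with array weights, 6148 without the NRF2 KO replicate 3 libraries, and between 3293 and 3584 with 1 library left out. The 2014 differences against media were 5376 with array weights, 3453 with the compared groups alone, 4041 without the NRF2 KO replicate 3 libraries and 1659 to 1938 with 1 library left out. The 1733 differences against NRF2 KO CM were 4410, 967 and 2896 under the same 3 settings and 1467 to 2280 with 1 library left out. The 0 differences against WT CM were 18 with array weights and 0 to 1 with 1 library left out, the 1 being without KEAP1 KO CM/CDDO-Me replicate 2. The other scaling, filter, pseudocount and trend settings kept each of these counts within 1.5 times. With the replicate number as a block the counts were 4820, 2916, 2492 and 0, and 8 of 13 fibroblast markers were lower in place of 3. The labels do not say what a number stands for. Deviations of same-numbered KEAP1 KO CM libraries correlated at 0.094, 0.359 and 0.421, vehicle replicate 1 correlating more with CDDO-Me replicate 2 (0.115) than with its own number. Same-number correlations were positive in every medium, from 0.062 in WT CM to 0.717 in NRF2 KO CM. Vehicle replicate 3 of KEAP1 KO CM correlated at -0.149 and -0.376 with CDDO-Me replicates 1 and 2. Whether libraries of a number share a source was not tested, and the main fit holds no term for the number.

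Some genes that had not passed the test changed sign, and the cause was not tested. Cxcl5 was at -0.16 without scaling, at -0.0017 with a filter of 5 TPM and between -0.53 and 0.48 with 1 library left out. Stat6 was at -0.006 without scaling, and it passed with array weights (0.20, adjusted p = 0.0011) and without the NRF2 KO replicate 3 libraries (0.19, adjusted p = 0.0016). Csf1r was at 0.016 with the filter on mean TPM, 0.012 with array weights, 0.014 without the NRF2 KO replicate 3 libraries and between -0.12 and 0.17 with 1 library left out. Nfe2l2 ranged from -0.44 to 0.078, the difference of Nqo1 against media from -0.74 to 0.059 and that of Cxcl9 against WT CM from -0.51 to 0.096 with 1 library left out. Genes without overlap numbered 6819 on scaled values and 7389 on the deposited TPM. The depth of each library is unknown, so the precision of low TPM cannot be stated, and 3 libraries per group limit every test.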
